A study of Tupaia belangeri with 2 samples.

Results

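ZIC1, ZIC2 and ZIC4 encode zinc finger transcription factors of the ZIC family, and they were chosen by name from the gene models of the tree shrew (Tupaia belangeri) annotation, 3 models of 23975. ZIC proteins carry zinc fingers related to those of the GLI factors, which respond to Hedgehog signaling, and they are known for roles in the dorsal neural tube, in cerebellar granule neurons and in the meninges. In people, loss of ZIC1 together with ZIC4 is associated with a malformation of the cerebellum, and mutations of ZIC2 cause holoprosencephaly, a failure of the forebrain to divide.

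Whole brains were taken from 2 embryos of the tree shrew, 4 to 5 weeks after conception, and the RNA of their single cells was counted in 1 library each (10x Chromium 3′ chemistry, v3), without any treatment. The study generated them to compare brain cells of the tree shrew, a close relative of primates, with those of primates, which were not analyzed here. The dura mater and the blood vessels were taken off before the tissue was dissociated with papain, so the meningeal cells described below are what remained. The counts are unique molecular identifiers (UMIs), each marking a captured transcript, and n = 2 embryos throughout, so embryo, library and exact stage cannot be told apart.

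Embryo 1 gave 41868023 UMIs in 9241 barcodes and embryo 2 gave 38077767 UMIs in 9685 barcodes. Cells with at least 200 genes numbered 8408 and 9327, with median depths of 3539 and 3169 UMIs, and 17 barcodes occurred in both libraries. The libraries stood apart in haemoglobin transcripts, which took 22.5% of the UMIs of the cells of embryo 1 and 8.38% in embryo 2. Doublets were kept, since the Scrublet method called 0 cells and 1 cell, which does not show that doublets were absent. At a rate of 0.8% per 1000 cells, 566 and 696 doublets would be present. In an alternative, that many cells with the highest Scrublet scores were left out. Clustering gave 17 clusters. Of these, 14 earned a name from at least 3 marker genes and formed 11 classes, while 3 stayed unnamed. Radial glia-like cells (the neural stem cells, with SOX9, SLC1A3, FABP7, VIM and NES among their markers) made up clusters 4 and 10. Midbrain or thalamus excitatory neuron-like cells made up clusters 2 and 11, both with SLC17A6, LHX9, SHOX2 and TCF7L2. Meningeal fibroblast-like cells (COL1A1, COL1A2, COL3A1, LUM, FOXC1, ALDH1A2 and OGN) made up cluster 15, with 59 and 55 cells in embryos 1 and 2. The ZIC genes were used neither as markers nor as variable genes for the clusters. The names were rebuilt from markers and may differ from those of the study.

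The annotation gives each ZIC gene a single model. ZIC1 and ZIC4 carry the consecutive model numbers 227 and 228 on chromosome 25, and ZIC2 and its neighbor ZIC5 carry 511 and 512 on chromosome 9. In cells, ZIC1 was counted 2596 times, ZIC2 2122 times and ZIC4 828 times, more than 84.7%, 82.4% and 71.3% of the 17412 models with any count. ZIC5, described only as a further family member, was counted 366 times. At least 1 UMI of ZIC1, ZIC2 or ZIC4 was found in 16.3% of the cells of embryo 1 and 17.7% of the cells of embryo 2. Most positive cells held a single UMI of the gene, between 70.5% and 82.3% across genes and embryos, and no cell held more than 11.

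Levels were calculated as UMIs per 1000000 UMIs of a class (CPM), given for embryos 1 and 2 in that order, and intervals are exact 95% Poisson or binomial intervals that cover counting error only. ZIC1 stood at 153 and 85.7 CPM in meningeal fibroblast-like cells (119 ± 47.5, SD, n = 2) and at 98.6 and 63.2 CPM in midbrain or thalamus excitatory neuron-like cells (80.9 ± 25.0). These 2 classes held the highest mean ZIC1 levels of the 11. Their ranges overlapped, although meningeal cells were the higher within each embryo. Endothelial-like cells followed with 66.2 and 49.1 CPM (57.6 ± 12.1) on 15 and 14 UMIs, and choroid plexus-like cells had 38.7 and 75.4 CPM (57.1 ± 26.0) on 9 and 18 UMIs, in embryo 2 above the excitatory class. Midbrain inhibitory neuron-like cells held 45.4 and 36.0 CPM (40.7 ± 6.68), below both values of the midbrain or thalamus excitatory class. Forebrain inhibitory neuron-like cells (35.3 and 23.3 CPM), dividing cell-like cells (31.9 and 23.8 CPM) and radial glia-like cells (26.4 and 28.5 CPM) overlapped with each other. Cortical excitatory neuron-like cells, at 13.9 and 24.4 CPM (19.1 ± 7.37), had the lowest mean of the neural classes, although in embryo 2 they were not below the forebrain inhibitory or the dividing cells.

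ZIC2 had the same leading classes, with 159 and 103 CPM in meningeal fibroblast-like cells (131 ± 39.5) and 62.6 and 73.3 CPM in the midbrain or thalamus excitatory class (68.0 ± 7.55), and here the ranges did not overlap. Midbrain inhibitory neuron-like cells came next with 37.7 and 68.4 CPM (53.0 ± 21.7). Their range overlapped with that of the excitatory class, although they were the lower within each embryo. Radial glia-like cells (17.1 and 25.8 CPM), dividing cell-like cells (16.8 and 21.8 CPM), forebrain inhibitory neuron-like cells (20.4 and 15.9 CPM) and cortical excitatory neuron-like cells (10.1 and 25.7 CPM) could not be ordered. In choroid plexus-like cells ZIC2 was counted 1 time in embryo 1 and 12 times in embryo 2, or 4.30 and 50.3 CPM.

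ZIC4 had its highest mean in choroid plexus-like cells, the epithelium that secretes cerebrospinal fluid, at 34.4 and 41.9 CPM (38.1 ± 5.31, on 8 and 10 UMIs). The counting intervals, 14.9 to 67.8 and 20.1 to 77.1 CPM, overlapped with those of meningeal cells (16.1 to 57.9 and 11.8 to 54.0 CPM). With cells thinned to 2000 UMIs, 3.33% and 2.78% of choroid plexus-like cells had a ZIC4 UMI (1 cell each). In the midbrain or thalamus excitatory class 5.20% and 3.26% did, so the order of these classes is not settled. Meningeal fibroblast-like cells had 32.3 and 27.4 CPM (29.9 ± 3.48, on 11 and 8 UMIs) and the midbrain or thalamus excitatory class 31.5 and 20.2 CPM (25.8 ± 7.96). These 2 ranges overlapped, although meningeal cells were the higher within each embryo. Radial glia-like cells (14.1 and 17.3 CPM, 15.7 ± 2.24) stood above dividing cell-like cells (11.0 and 10.4 CPM) in both embryos, although this difference did not pass the edgeR test (adjusted p = 0.0735). All 3 other neuron classes were lower, with 10.2 and 4.55 CPM in forebrain inhibitory, 4.71 and 5.79 CPM in midbrain inhibitory and 3.1 and 4.13 CPM in cortical excitatory neuron-like cells.

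**Figure D1:**
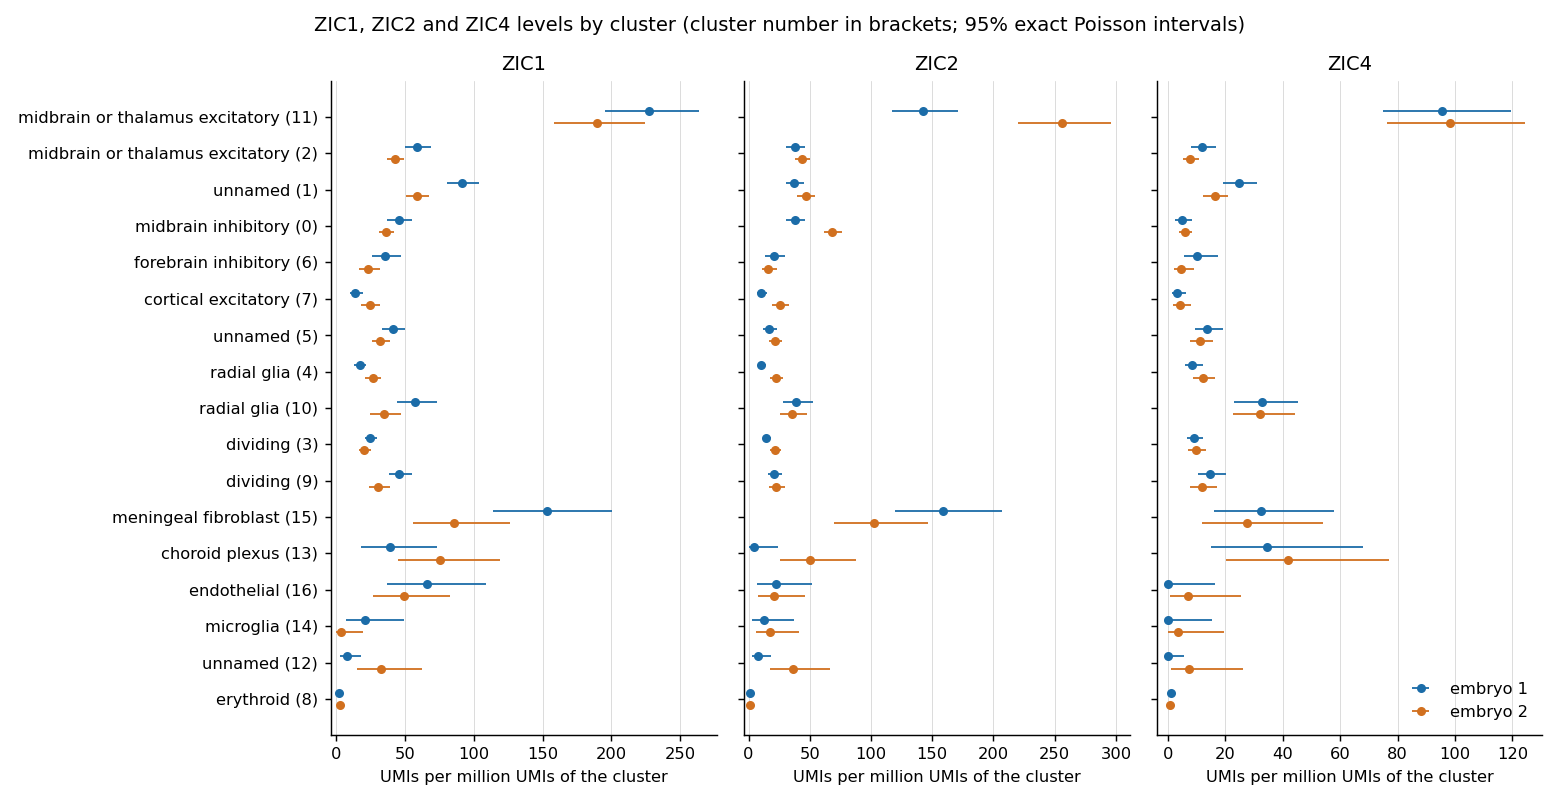
Levels of ZIC1, ZIC2 and ZIC4 in each of the 17 clusters, in UMIs per 1000000 UMIs of the cluster, with a point for each embryo and its exact 95% Poisson interval. Cluster 11 stands highest for all 3 genes in both embryos, with the exception of ZIC2 in embryo 1, where meningeal cluster 15 is at 159 CPM and cluster 11 at 142 CPM.

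Erythroid-like cells gave a level for free RNA, since red cell precursors are not known to use ZIC genes. Their ZIC1, ZIC2 and ZIC4 levels were 1.74 and 2.51, 1.09 and 1.25, and 0.98 and 0.63 CPM. Haemoglobin filled about 88% of their UMIs, however, and over the remaining UMIs the levels were 14.9 and 20.3 CPM for ZIC1, 9.29 and 10.2 CPM for ZIC2 and 8.36 and 5.08 CPM for ZIC4. Microglia-like cells, another class outside the neural lineage, held 5 and 1 UMIs of ZIC1, 3 and 5 of ZIC2 and 0 and 1 of ZIC4. Their ZIC2 level was 12.6 and 17.7 CPM, or 2.59 to 36.7 and 5.73 to 41.2 CPM by counting. In both embryos these intervals contained the ZIC2 levels of radial glia-like, dividing cell-like, forebrain inhibitory and cortical excitatory neuron-like cells. ZIC1 in cortical excitatory neuron-like cells (9.76 to 19.3 and 18.2 to 31.8 CPM by counting) was not set apart from the erythroid-like level over the remaining UMIs. ZIC4 in the cortical and both inhibitory classes was not either. In embryo 2 alone, ZIC1 in forebrain inhibitory (16.7 to 31.6 CPM) and dividing cell-like cells (20.2 to 27.9 CPM) was also not set apart from that level. ZIC2 in the cortical class was at that level in embryo 1 and above it in embryo 2. The levels in meningeal cells and in midbrain or thalamus excitatory neuron-like cells were above it in both embryos for all 3 genes. In all of this the erythroid-like level was taken as a fixed value. It rests on 16 and 8 UMIs of ZIC1, 10 and 4 of ZIC2 and 9 and 2 of ZIC4, and its own counting error was left out. For ZIC4 in embryo 2 that error spans 0.0759 to 2.26 CPM around 0.63 CPM over all UMIs. Over the remaining UMIs, where the level is 5.08 CPM, the interval is wider in the same proportion. The limits given are therefore not on the scale of the class levels. Comparisons with ZIC4 in embryo 2 are the loosest, those of meningeal and midbrain or thalamus excitatory neuron-like cells included. The erythroid-like level itself depended on which cells were kept. Per UMI of all genes it rose 7.24-, 8.03- and 5.04-fold for ZIC1, ZIC2 and ZIC4 among cells with at least 1000 genes, and it was 3.31, 3.04 and 1.79 times lower when the cells with the highest Scrublet scores were left out, so it gives no fixed background.

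Because the chance of seeing a UMI grows with depth, each cell was also thinned to 2000 UMIs, and shallower cells were left out. At that depth 25 of 48 and 11 of 40 meningeal fibroblast-like cells had a UMI of ZIC1, ZIC2 or ZIC4, or 52.1% (37.2% to 66.7%) and 27.5% (14.6% to 43.9%), against 69.5% and 56.4% without thinning. The thinned shares in midbrain or thalamus excitatory neuron-like cells were 22.7% (19.9% to 25.7%) and 19.9% (17.8% to 22.3%), and without thinning 31.6% and 26.5%. Choroid plexus-like cells had 10% (3 of 30 cells) and 27.8% (10 of 36), and endothelial-like cells 10.5% and 13.8% on 2 and 4 cells. Midbrain inhibitory neuron-like cells (12.8% and 15.2%), radial glia-like cells (9.49% and 10.7%) and dividing cell-like cells (9.02% and 9.0%) were lower than the midbrain or thalamus excitatory class in both embryos, and forebrain inhibitory neuron-like cells had 9.03% and 6.2%. Cortical excitatory neuron-like cells had 4.05% and 7.62%. The share in microglia-like cells was 9.09% and 2.86% on 3 and 1 cells, and in erythroid-like cells 0.530% and 1.32%. Haemoglobin filled about 88% of the erythroid-like UMIs, so a thinned erythroid-like cell kept few other UMIs. Its share is low for that reason alone and is no matched background.

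**Figure D2:**
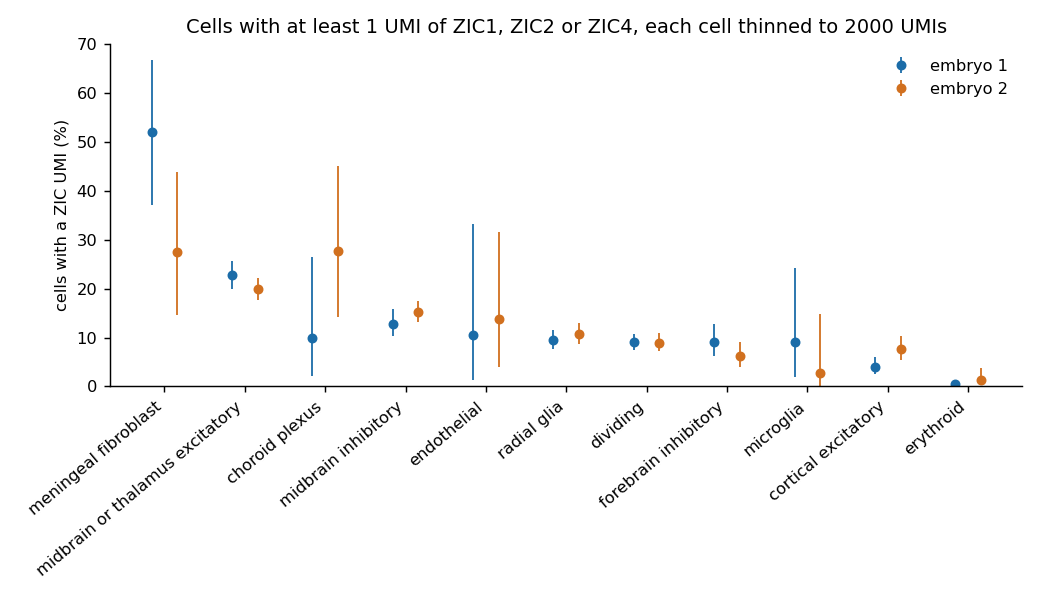
Share of cells with at least 1 UMI of ZIC1, ZIC2 or ZIC4 in each class after every cell was thinned to 2000 UMIs, with a point for each embryo and its exact 95% binomial interval. Meningeal fibroblast-like cells (52.1% and 27.5%) and midbrain or thalamus excitatory neuron-like cells (22.7% and 19.9%) have the highest means, choroid plexus-like cells reach 27.8% in embryo 2 on 10 of 36 cells, and the intervals of the small classes are wide. Haemoglobin lowers the share of erythroid-like cells.

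Within the midbrain or thalamus excitatory class the ZIC genes were concentrated in cluster 11, which held 224 and 195 cells of the class against 664 and 1163 in cluster 2. ZIC1 was at 227 and 189 CPM in cluster 11 and at 58.8 and 42.8 CPM in cluster 2. ZIC2 was at 142 and 256 CPM against 38.0 and 43.7 CPM. ZIC4 was at 95.3 and 98.2 CPM against 11.8 and 7.59 CPM. For each gene both values of cluster 11 exceeded both values of cluster 2, and ZIC5 followed with 34.3 and 46.9 CPM against 7.06 and 4.14 CPM. Thinned to 2000 UMIs, 58.2% and 63.8% of the cells of cluster 11 had a ZIC UMI, against 11.3% and 12.9% in cluster 2. The genes that led cluster 11 included GNG8, NFL (neurofilament light chain), CTHRC1 and NEFM. Cluster 11 was singled out after its values were seen, so the difference from cluster 2 is a description without a test.

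The radial glia-like clusters differed in the same manner, though less. Cluster 10, led by BCAN, SPON1, VCAM1 and SULF1 and with astrocyte markers among its genes, had ZIC1 at 57.3 and 34.6 CPM, ZIC2 at 39.1 and 35.5 CPM and ZIC4 at 32.8 and 32.0 CPM. In cluster 4 these levels were 17 and 26.4, 10.4 and 22.5, and 8.51 and 12.1 CPM. All values of cluster 10 were above those of cluster 4, and the thinned shares of positive cells were 17.8% and 16.4% against 7.13% and 8.72%. Of the unnamed clusters, cluster 1, led by ISL1, CHGB and SIX3 with 1019 and 1252 cells, held 91.5 and 58.6 CPM of ZIC1, 37.3 and 46.7 CPM of ZIC2 and 24.6 and 16.2 CPM of ZIC4.

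The named classes were then compared on UMIs summed per embryo and class, with the embryo as a block. The unnamed clusters 1, 5 and 12 had no part in this. A single edgeR quasi-likelihood fit was used, in which 9942 genes, all 3 ZIC genes included, passed the filter on low counts. Adjusted p-values are Benjamini-Hochberg values over those genes, and a gene is called when its adjusted p is under 0.05. The SE and p-values rest on variation estimated over all 20 sums of the fit (9 residual degrees of freedom). They do not measure the spread of a difference between the 2 embryos. In midbrain or thalamus against cortical excitatory neuron-like cells, ZIC1 was higher by 1.95 on the log2 scale (SE 0.20, adjusted p = 2.00e-12), a 3.87-fold difference, ZIC2 by 1.83 (SE 0.21, adjusted p = 1.54e-10) and ZIC4 by 2.67 (SE 0.32, adjusted p = 6.89e-10), each in 2 of 2 embryos. ZIC5 was higher as well (2.80, SE 0.47, adjusted p = 3.06e-06). In this comparison 10.6% of all genes tested were called higher and 10.1% lower. The difference was larger in embryo 1, at 2.74 against 1.34 in embryo 2 for ZIC1, 2.52 against 1.47 for ZIC2 and 2.99 against 2.05 for ZIC4. Without embryo 1, ZIC1 stood at 1.28, ZIC2 at 1.42 and ZIC4 at 2.18. Without cluster 11 all 3 genes remained called, at 1.30, 1.10 and 1.24.

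Midbrain or thalamus excitatory neuron-like cells also exceeded the mean log2 level of the midbrain and forebrain inhibitory classes. The log2 differences were 1.27 for ZIC1 (SE 0.15, adjusted p = 1.73e-10), 1.2 for ZIC2 (SE 0.17, adjusted p = 2.54e-08) and 2.06 for ZIC4 (SE 0.23, adjusted p = 3.78e-11), in 2 of 2 embryos each, where 12.8% of genes tested were called higher and 7.9% lower. Cluster 11 decided part of this result. Without it ZIC1 was higher by 0.62 (adjusted p = 0.00306), whereas ZIC2 (0.46, adjusted p = 0.0804) and ZIC4 (0.64, adjusted p = 0.131) were no longer called. The inhibitory mean covers named classes only, so unnamed cluster 1 is not part of it. In that cluster ZIC1 was at 91.5 and 58.6 CPM, against 98.6 and 63.2 CPM in the excitatory class. ZIC4 was at 24.6 and 16.2 against 31.5 and 20.2 CPM, and ZIC2 at 37.3 and 46.7 against 62.6 and 73.3 CPM. The difference from cluster 1 was not tested.

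Meningeal fibroblast-like cells were compared with the mean log2 level of the 4 neuron-like classes, namely the cortical and the midbrain or thalamus excitatory and the forebrain and midbrain inhibitory classes. ZIC1 was higher by 1.82 (SE 0.25, adjusted p = 6.37e-09), ZIC2 by 2.15 (SE 0.25, adjusted p = 8.41e-11) and ZIC4 by 2.05 (SE 0.46, adjusted p = 1.83e-04), in 2 of 2 embryos. These are 3.53-, 4.43- and 4.14-fold differences from that log2 mean, which lies below the mean of the CPM of these classes. Against the midbrain or thalamus excitatory class alone, the ranges of ZIC1 and ZIC4 over both embryos overlapped. Within each embryo the meningeal level of both genes was the higher, a difference that was not tested. Of the genes tested, 20.1% were called higher in meningeal cells and 18.1% lower. The median of all genes was −0.15 in this comparison and moved to −0.01 with RLE size factors and to −0.24 with library totals, so the scaling shifted all values by less than the ZIC differences. Without embryo 1 the differences of ZIC1 and ZIC2 were 1.48 and 1.58.

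Radial glia-like cells differed from the mean log2 level of the same 4 neuron-like classes in another way for each gene. ZIC4 was higher in radial glia-like cells by 1.16 (SE 0.21, adjusted p = 1.59e-06), a 2.24-fold difference seen in 2 of 2 embryos. It was not higher than in every neuron class. The midbrain or thalamus excitatory class, at 31.5 and 20.2 CPM, was above radial glia-like cells (14.1 and 17.3 CPM) in both embryos. The difference comes from the cortical and both inhibitory classes, whose ZIC4 was not set apart from the erythroid-like level over the remaining UMIs. The mean covers named classes only, so unnamed cluster 1 is not part of it. With 24.6 and 16.2 CPM of ZIC4, that cluster was above radial glia-like cells in embryo 1 and below them in embryo 2. ZIC2 was lower, at −0.47 (SE 0.17, adjusted p = 0.0145, lower in 2 of 2 embryos), and ZIC1 was not called (−0.26, SE 0.15, adjusted p = 0.129). Radial glia and neurons differ widely, and 32% of genes tested were called higher in radial glia-like cells and 27.5% lower. The call of ZIC2 was lost without the embryo block (adjusted p = 0.109), with DESeq2 (adjusted p = 0.120) and without cluster 11 (−0.28, adjusted p = 0.154), and the difference turned to 0.059 (adjusted p = 0.803) when the cells with the highest doublet scores were left out. ZIC4 was not called among cells with at least 1000 genes (0.49, adjusted p = 0.0706), and without cluster 10 its difference fell to 0.62 (adjusted p = 0.0310).

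Between dividing cell-like and radial glia-like cells none of the 3 genes was called by edgeR. The log2 differences were 0.08 for ZIC1 (SE 0.17, adjusted p = 0.805), −0.08 for ZIC2 (SE 0.19, adjusted p = 0.824) and −0.49 for ZIC4 (SE 0.21, adjusted p = 0.0735). Without cluster 10 that of ZIC4 was −0.0029. ZIC4 was lower in dividing cells in 2 of 2 embryos, and ZIC1 was higher in embryo 1 and lower in embryo 2. Of all genes tested, 14% were called higher in dividing cells and 11.7% lower.

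**Figure D3:**
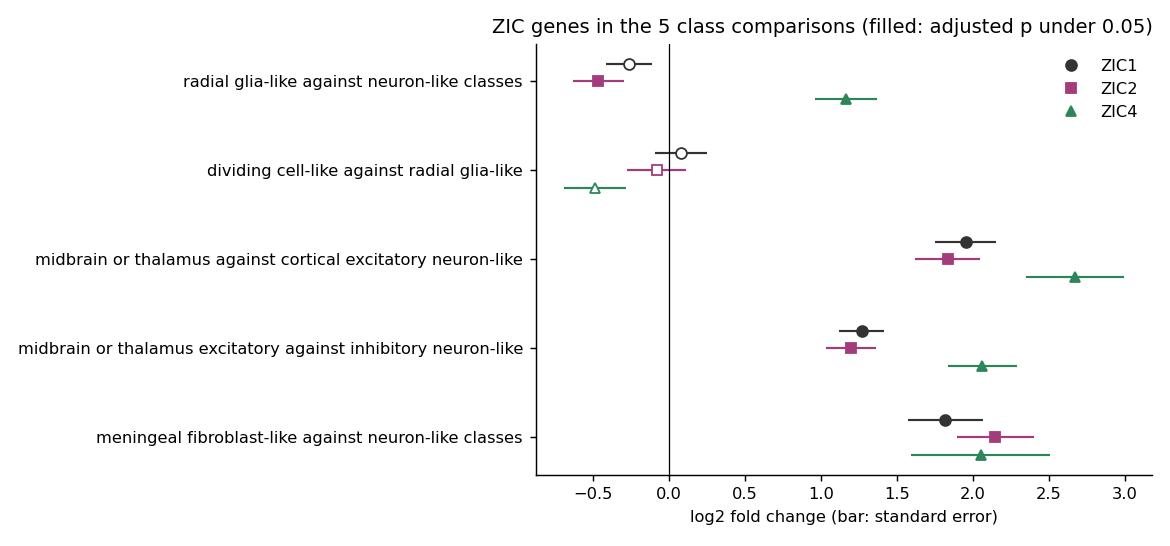
Log2 fold changes of ZIC1, ZIC2 and ZIC4 in the 5 class comparisons, with bars for the standard error of the fit (not the spread between embryos) and filled symbols where the edgeR adjusted p is under 0.05. All 3 genes are called higher in the midbrain or thalamus excitatory class and in meningeal cells, and no symbol is filled for dividing cells. ZIC4 alone is called higher in radial glia-like cells than in the log2 mean of the neuron-like classes, although its level there is below that of the midbrain or thalamus excitatory class.

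Cells with a UMI of a ZIC gene held another ZIC gene more often than the rest, although most ZIC1-positive cells had no ZIC2 UMI. Among cells other than erythroid-like ones, thinned to 2000 UMIs, a ZIC2 UMI was found in 16% and 24.5% of the cells with a ZIC1 UMI and in 3.61% and 5.08% of the rest. ZIC4 was found in 11.2% and 8.85% of the ZIC1-positive cells against 1.63% and 1.69% of the rest. ZIC1 in turn was present in 37.6% and 28.8% of ZIC4-positive cells against 7.35% and 6.68%. Within clusters the contrast varied. In cluster 1 ZIC2 was found in 16% and 33.8% of ZIC1-positive cells against 5.13% and 4.36% of the others, and in cluster 2 in 21.2% and 27.6% against 2.79% and 4.61%. In cluster 11, where the genes are common, ZIC2 was found in 27.0% and 44.9% of ZIC1-positive cells against 22.8% and 39.2% of the others, and ZIC4 in 24.3% and 14.3% against 13.4% and 16%.

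Across the 17 clusters, the level of ZIC1 (as log2(CPM + 1)) was closest to that of ZIC2, with r = 0.90 in embryo 1 and 0.87 in embryo 2, out of 9876 genes with at least 100 UMIs. ZIC1 was likewise the gene closest to ZIC2. The next for ZIC1 were ATPAF1 (r = 0.86 and 0.84), NANOG, KCNMB4 and MK, and for ZIC2 they were SLC22A23, CAPRIN2, MARCH6 and PAXX. For ZIC4 the closest were UBXN11 (r = 0.78 and 0.78), SMCA1, PLXA1, MLF1 and RIBC1, and its likeness to its neighbor ZIC1 was r = 0.68 and 0.84. These values describe clusters that share 2 libraries and differ in depth, and they carry no test. The erythroid-like cluster, with its haemoglobin, lowers the CPM of other genes together.

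ZIC2 was the member that differed most between the embryos when the neural classes were pooled. Over the neural classes it stood at 25.4 CPM in embryo 1 and 42.1 CPM in embryo 2, a log2 difference of 0.73 that was larger in size than that of 96.9% of 9065 genes. ZIC1 (40.4 and 35.1 CPM), ZIC4 (13.1 and 11.8 CPM) and ZIC5 (5.59 and 6.03 CPM) differed by −0.20, −0.16 and 0.11. Of the ZIC1 and ZIC2 UMIs of all cells, ZIC2 made up 36.8% in embryo 1 and 51.8% in embryo 2. The share was 38.9% and 53.7% in midbrain or thalamus excitatory, 45.4% and 65.5% in midbrain inhibitory, 39.3% and 47.5% in radial glia-like and 34.5% and 47.8% in dividing cells. It was higher in embryo 2 in 16 of 17 clusters, the exception being the erythroid-like cluster. The ZIC2 level itself was lower in embryo 2 in meningeal (159 and 103 CPM) and forebrain inhibitory cells (20.4 and 15.9 CPM). The same was true of cluster 10 (39.1 and 35.5 CPM) and endothelial-like cells (22.1 and 21.0 CPM), and ZIC1 was lower there too. In the remaining clusters ZIC2 was higher in embryo 2. The pooled level also mixes classes of differing size, with 971 and 2078 midbrain inhibitory neuron-like cells. With 1 library for each embryo there is no test of this difference. Since 3′ counts depend on how well the end of each transcript is annotated, the share is read between embryos and classes and not as an order of the genes.

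**Figure D4:**
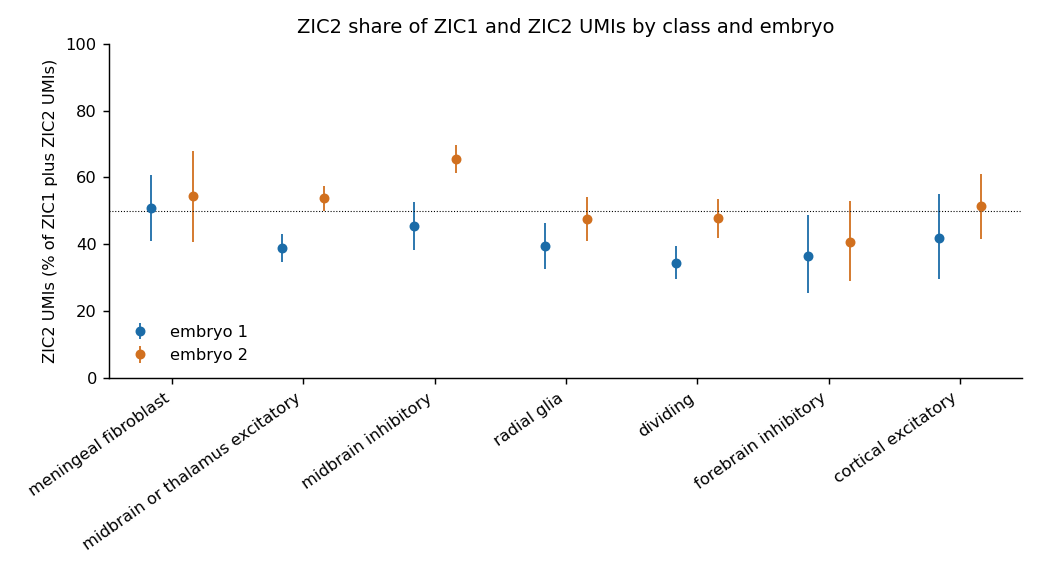
ZIC2 UMIs as a percentage of ZIC1 plus ZIC2 UMIs in the neural and meningeal classes, with a point for each embryo and its exact 95% binomial interval. Embryo 2 lies above embryo 1 in every class shown, with 65.5% against 45.4% in midbrain inhibitory neuron-like cells and 54.5% against 50.9% in meningeal cells.

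ZIC4 made up a varying part of the ZIC1 plus ZIC4 UMIs, although the genes are neighbors. The share was 34.9% and 37.8% in radial glia-like cells and reached 36.4% and 48.1% in cluster 10. The midbrain or thalamus excitatory class had 24.2% and 24.2%. In midbrain inhibitory neuron-like cells it was 9.40% and 13.9%, the lower values lying apart from those of radial glia-like cells in both embryos. They rest on 11 and 28 ZIC4 UMIs, a level not set apart from that of erythroid-like cells over their remaining UMIs. In erythroid-like cells the share was 36.0% and 20.0%, on 9 and 2 ZIC4 UMIs.

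The genes of the Hedgehog pathway, whose GLI factors resemble the ZIC proteins, were examined next in the same class fit. Of 13 genes listed, 11 had a named model (SHH and GLI1 had none) and 6 passed the filter. Radial glia-like cells held more of 5 of these 6 than the neuron-like classes and less of none, where 32% of all genes tested were called higher and 27.5% lower. They were the receptor PTCH1 (1.53), the signal transducer SMO (1.91), the repressor-forming factor GLI3 (3.30), the inhibitor HHIP (3.78) and the co-receptor BOC (2.42). GLI3 was at 31.9 and 28.8 CPM in radial glia-like cells and at no more than 5.79 CPM in the 4 neuron-like classes, and the median of the 6 genes was 2.16 against 0.04 over all genes. Dividing cells held less PTCH1 (−0.80) and GLI3 (−0.62) than radial glia-like cells, where 4 of the 6 were not called. There 14% of all genes tested were called higher and 11.7% lower. Of the 6, 1 was called in each of the next comparisons, where the shares over all genes tested were 10.6% higher and 10.1% lower between the excitatory classes and 20.1% and 18.1% in meningeal cells. PTCH1 was higher in midbrain or thalamus than in cortical excitatory neuron-like cells (2.11, adjusted p = 0.00101 by edgeR; 6.89 and 7.13 against 0.77 and 2.30 CPM), and SMO was higher in meningeal cells than in neurons (2.84, adjusted p = 7.91e-04, on 7 and 2 UMIs).

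Of 17 genes of the roof plate and dorsal midline, the territory in which ZIC genes are known to act, 13 had a named model and only BMP4, RSPO2, PAX3 and PAX7 passed the filter. BMP4, a secreted signal of the dorsal midline, was at 76.4 and 82.3 CPM in meningeal fibroblast-like cells and was 7.05 higher there than in neurons on the log2 scale (adjusted p = 5.37e-21). RSPO2, which strengthens WNT signaling, was higher in radial glia-like cells than in neurons (3.04) and lower in dividing cells than in radial glia-like cells (−2.81), on 19 and 12 UMIs in radial glia-like cells. PAX3 and PAX7, transcription factors of the dorsal neural tube, were highest, among the classes, in midbrain inhibitory neuron-like cells, with 110 and 125 CPM of PAX3. Both were higher in dividing than in radial glia-like cells (2.20 and 3.42), where none of the ZIC genes was called. Both were lower in midbrain or thalamus excitatory than in inhibitory neuron-like cells (−1.2 and −1.89), and in that comparison the ZIC genes went the other way. PAX3 was higher in midbrain or thalamus than in cortical excitatory neuron-like cells (2.01, adjusted p = 2.05e-04).

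Of 5 genes described elsewhere as targets of ZIC proteins, EPHB1 and APOE passed the filter and DRD1 had no named model. EPHB1, an axon guidance receptor, was higher in midbrain or thalamus excitatory than in inhibitory neuron-like cells (2.32, adjusted p = 1.12e-06; 10.5 and 13.5 CPM against 7.28 and 5.79 CPM in the midbrain and 2.35 and 0 CPM in the forebrain inhibitory class). The difference was 1.12 in embryo 1 and 2.47 in embryo 2, and the forebrain value rests on 3 and 0 UMIs. It was also called higher in radial glia-like cells than in neurons (0.73, adjusted p = 0.0265), a direction that turned at a clustering resolution of 1.0. It was lower in dividing than in radial glia-like cells (−1.26). APOE, a lipid carrier of microglia and glia, was at 491 and 552 CPM in meningeal cells, 6.52 above neurons, and at 19473 and 20496 CPM in microglia-like cells. It was 2.48 higher in radial glia-like cells than in neurons and lower in dividing than in radial glia-like cells (−1.24), and both values changed sign among cells with at least 1000 genes.

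To see which other genes accompany ZIC transcripts within a class, cells were called ZIC-positive when they held a UMI of ZIC1, ZIC2 or ZIC4 after thinning to 2000 UMIs. Sums over all UMIs of positive and negative cells were then compared in a second edgeR fit with the embryo as a block, with 7561 genes tested and the 3 ZIC genes left out of the test. In radial glia-like cells, with 87 and 92 positive against 830 and 765 negative cells, 60 genes were higher in positive cells (0.794% of those tested) and 80 lower (1.06%). Of these 140, 136 moved the same way in both embryos. The calls come from a fit to the same embryos, so that count adds no support. In midbrain or thalamus excitatory neuron-like cells (188 and 251 against 639 and 1008) 174 genes were higher (2.3%) and 127 lower (1.68%). In midbrain inhibitory neuron-like cells (78 and 180 against 530 and 1003) 1 gene was higher (0.0132%) and 1 lower (0.0132%), while 466 had an unadjusted p under 0.05. Without the embryo block these counts were 17, 93 and 0.

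In radial glia-like cells the positive cells were set apart by CRABP1, a retinoic acid-binding protein, at 198 and 164 CPM against 15.8 and 20.6 CPM in negative cells (log2 difference 3.20, SE 0.20, adjusted p = 6.80e-13). Among cells with at least 1000 genes CRABP1 was at 1.25 and no longer called (adjusted p = 0.350 by edgeR). FGF8, the signal of the organizer at the boundary of midbrain and hindbrain, was at 79.1 and 58.9 CPM against 7.41 and 10.7 CPM (2.81, SE 0.31, adjusted p = 1.20e-06). Its relatives FGF17 (49.5 and 13.1 against 4.54 and 4.83 CPM, adjusted p = 0.00486) and FGF18 (4 and 7 UMIs against 7 and 0, adjusted p = 0.0326) were higher too. The same direction in both embryos was a condition for naming these genes, so it adds no support. CLYBL, a mitochondrial enzyme, was at 91.5 and 45.8 CPM against 5.98 and 12.5 CPM (2.78, adjusted p = 3.84e-06), and ADAMTS3, ECM2 and CNTN3, with 11 to 17 UMIs in positive cells, completed the genes with the largest increases. PAX3 was the only member of the lists to be called (34.6 and 41.5 against 13.9 and 13.2 CPM, 1.38, adjusted p = 0.0169). No Hedgehog pathway gene was called among the 5 tested, whose median was −0.02. Only 0.794% of all genes tested were called higher and 1.06% lower, so the lack of calls does not set the pathway apart.

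The genes with the largest decreases in ZIC-positive radial glia-like cells included SULF1 and SPON1, which act in the extracellular matrix and are among the leading genes of cluster 10. SULF1 was at 0 and 6.55 CPM against 40.7 and 39.9 CPM, a ratio of 0.0863 on 3 UMIs (0.0177 to 0.254 by counting), and SPON1 at 7.42 and 6.55 CPM against 53.1 and 54.2 CPM (−3.04, SE 0.46, adjusted p = 1.06e-04). CADPS, which primes vesicles for release, was at 19.8 and 21.8 CPM against 80.8 and 58.0 CPM (−1.84, adjusted p = 5.54e-04). JPH1, a leading gene of cluster 4, and CRYAB were each counted 3 times in positive cells, with ratios of 0.126 (0.0258 to 0.373) and 0.171 (0.0349 to 0.509), and RACGAP1 was lower on 7 UMIs. The rest were 1 model each of PCNP and RL7A, with 0 and 2 UMIs in positive and 58 and 121 in negative cells, names that several models share and between which reads may be divided. Clusters 4 and 10 contributed 58.6% and 41.4% of the positive cells of embryo 1, and 59.8% and 40.2% in embryo 2, although cluster 10 held fewer cells. Compared within clusters, 46 genes were called, among them CRABP1 (3.1, adjusted p = 1.35e-05), FGF8 (3.24, adjusted p = 6.00e-07), CLYBL (2.62, adjusted p = 3.05e-06) and CADPS (−1.86, adjusted p = 0.0347), whereas PAX3 was not (0.10, adjusted p = 0.986).

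In midbrain or thalamus excitatory neuron-like cells the gene with the smallest adjusted p was GNG8, a G protein subunit, at 439 and 410 CPM in positive and 82.1 and 52.5 CPM in negative cells (2.66, SE 0.12, adjusted p = 4.90e-17). ZIC5, the neighbor of ZIC2, was at 37.3 and 44.0 CPM against 5.63 and 1.03 CPM (3.77, SE 0.39, adjusted p = 3.37e-08). UNC5C, a netrin receptor, was at 28.3 and 28.4 CPM against 6.44 and 2.06 CPM (2.83, adjusted p = 3.35e-06). NFL (2.62, one of several models of that name) and CTHRC1 (2.75) were higher as well, and like GNG8 they are leading genes of cluster 11, which supplied 62.2% and 44.2% of the positive cells. The neuropeptide gene GAL was counted 3 and 22 times in positive cells and 1 time in each embryo in negative cells, a ratio of 44.3 (11.0 to 386 by counting). A model of HYDIN, another shared name, had 10 UMIs against 3, a ratio of 11.8 (3.04 to 66.8). Within clusters only 9 genes were called, and they included GNG8 (1.94, adjusted p = 2.17e-14), ZIC5 (2.99, adjusted p = 6.85e-06) and UNC5C (1.94, adjusted p = 0.0247) but not NFL (0.64, adjusted p = 0.510) or CTHRC1 (1.27, adjusted p = 0.705).

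Among the decreases in these neurons were SOX6, a transcription factor (2.57 and 7.82 against 22.5 and 33.2 CPM, −2.39, adjusted p = 8.63e-05), the WNT antagonist DKK4 (9.01 and 13.7 against 34.6 and 49.4 CPM, −1.92) and the transcription factor TSHZ2 (3.86 and 7.82 against 20.5 and 26.7 CPM, −2.01). INSYN1, IGDCC3 and CRYBA1 were lower on 12, 8 and 5 UMIs in positive cells, and C6orf141 and NDST4, with 2 UMIs each, had ratios of 0.148 (0.0174 to 0.563) and 0.0754 (0.00899 to 0.280). EPHB1 was lower in positive cells (6.43 and 2.93 against 11.7 and 15.9 CPM, −1.69, adjusted p = 0.0307), although it was higher in this class than in inhibitory neurons. Within clusters SOX6 was at −3.55 and was not called (adjusted p = 0.335). In midbrain inhibitory neuron-like cells the single gene with a name was FABP5, a fatty acid-binding protein with several models, at 906 and 1307 CPM against 620 and 837 CPM (0.55, SE 0.08, adjusted p = 0.00201).

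Markers of other cell types were summed over the same positive and negative cells, since ZIC levels are high in meningeal cells. In midbrain or thalamus excitatory neuron-like cells the 10 meningeal markers with a model added up to 15.4 and 10.8 CPM in positive cells and 5.63 and 1.80 CPM in negative cells, and COL1A2 itself was among the genes called higher (8 and 7 UMIs against 3 and 1). Of these markers 3 and 4 were detected in positive cells, and FOXC1, FOXC2, FOXD1, TBX18 and ALDH1A2 were at 0. In radial glia-like cells the sums were 17.3 and 8.73 CPM against 13.4 and 12 CPM, and in midbrain inhibitory neuron-like cells 4.38 and 5.88 CPM against 7.57 and 3.93 CPM. With every cell that held a collagen, LUM or OGN UMI left out, 126, 319 and 9 genes were called in the 3 classes, and CRABP1 (3.41), FGF8 (2.40), GNG8 (2.57) and ZIC5 (3.81) remained called, whereas FGF17 did not (1.93, adjusted p = 0.134). Choroid plexus markers added up to 71.7 and 286 CPM in positive radial glia-like cells and 61.7 and 84.2 CPM in negative ones, and erythroid markers to 3084 and 26025 CPM against 9130 and 1086 CPM. The part of these transcripts in the results was not tested.

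**Figure D5:**
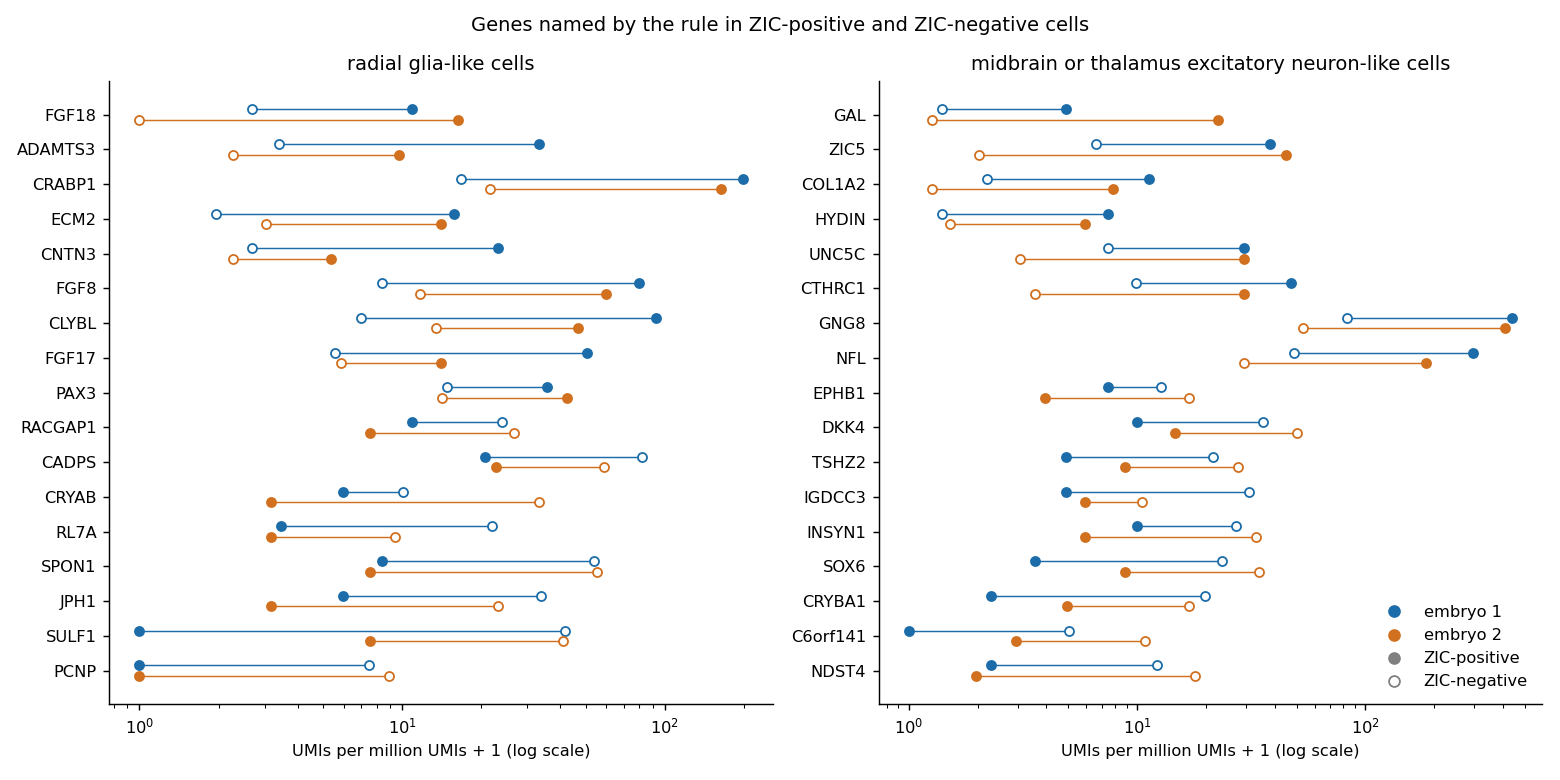
Levels of the genes named by the rule in ZIC-positive (filled) and ZIC-negative (open) radial glia-like cells and midbrain or thalamus excitatory neuron-like cells, in UMIs per 1000000 UMIs plus 1 on a log axis, with a line for each embryo. For the genes with the largest changes, the same direction in both embryos was a condition of the choice. CRABP1 was at 198 and 164 CPM in positive cells against 15.8 and 20.6 CPM in negative cells.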

How the data were processed

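The authors checked read quality with fastp, ran Cell Ranger 3.1.0 against the TS_2.0 assembly and deposited the raw counts of UMIs for each embryo, by model and barcode, not normalized. Cells with at least 200 genes were kept (17735). After scaling to 10000 UMIs and a log transform, the cells of both embryos were clustered together with scanpy 1.11.5 and leidenalg 0.10.2 (2000 variable genes without any gene of the 4 lists, 20 components, 20 neighbors, resolution 0.5). A marker counted when detected in at least 10% of the cells of a cluster with a level at least 2 times that of the remaining cells. UMI sums per embryo and class (at least 20 cells in each embryo, erythroid-like cells left out) were compared by the quasi-likelihood test of edgeR 4.0.16 (R 4.3.3; TMM, default filterByExpr). The embryo was a block, because the classes of an embryo come from the same animal. DESeq2 1.42.0 was an alternative. The steps were tested on simulated data.

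The genes named are the ZIC family, called members of the lists, the 5 genes most similar to each member across clusters and, for each split by ZIC sign, up to 8 genes with the largest called change in each direction that moved alike in both embryos, without models named by an identifier alone. The members and lists were chosen with earlier results of these data known. No genome sequence or coordinates were used.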

Additional observations from a re-analysis of the deposited data

How the results depend on the processing

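For midbrain or thalamus against cortical excitatory neuron-like cells and for meningeal cells against neurons, the 3 ZIC genes kept direction and call in 33 of 33 tested alternatives each, and of 165 in all class comparisons 146 did. Leaving out an embryo allows no test and gave 2.02 to 2.13 for ZIC4 in meningeal cells. Radial glia-like cells against neurons: ZIC1 became called without the gene filter (−0.34), with library totals (−0.40), at 1000 genes per cell (−0.72), at resolution 1.0 (−0.41) and without cluster 10 (−0.54). ZIC2 lost its call without the replicate block (−0.48), with DESeq2 (−0.52), 30 components (−0.32) or cluster 11 left out (−0.28), turned to 0.059 without the highest Scrublet scores, and ranged from −0.50 to −0.41 with an embryo left out. ZIC4 lost it at 1000 genes (0.49). Dividing against radial glia-like cells: ZIC1 turned with 30 components (−0.021) and ranged from −0.22 to 0.34 with an embryo left out. ZIC2 turned at 1000 genes (0.20) and without cluster 10 (0.19), and ranged from −0.20 to 0.043. ZIC4 became called with library totals (−0.55), Scrublet scores (−0.72) and 30 components (−0.58). Excitatory against inhibitory neurons: without cluster 11, ZIC2 (0.46) and ZIC4 (0.64) lost their calls. The causes were not tested.

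Without the replicate block, 1336, 1212 and 1107 genes were called in dividing cells, in midbrain or thalamus against cortical and in excitatory against inhibitory neurons. By ZIC sign in radial glia-like cells, 140 calls became 17 without the block, 46 with DESeq2 or within clusters, 88 at 1000 genes, 284 thinned to 1000 UMIs and 502 without the gene filter. In midbrain or thalamus excitatory neurons 301 became 93 without the block, 139 with DESeq2 and 9 within clusters. In midbrain inhibitory neurons 2 became 0 without the block, 4 within clusters or without high Scrublet scores, 5 with 30 components, 6 with RLE size factors or library totals, 7 thinned to 1000 UMIs, 8 at resolution 1.0, 9 without collagen-positive cells, 10 at 1000 genes and 16 without the filter. Named genes that turned were APOE in radial glia-like cells against neurons (−0.20 at 1000 genes) and in dividing cells (1.14 at 1000 genes, 0.96 without cluster 10), EPHB1 in radial glia-like cells against neurons (−0.22 at 1000 genes, −0.011 at resolution 1.0), and by ZIC sign PAX3 in radial glia-like cells (−0.83 at 1000 genes) and COL1A2 in excitatory neurons (−0.54 thinned to 1000 UMIs). Of 664 tested alternatives for named genes, 561 kept the call and 96 lost it. CRABP1 lost its call at 1000 genes (adjusted p = 0.350). Shares above the erythroid one, which haemoglobin lowers, fell from 10 classes to 4 at 1000 genes. Of the 15 most similar genes 4 stayed with Spearman's rho and 6 at resolution 1.0. Class levels of the ZIC genes moved by over 1.5 times in 24 of 159 alternatives, most of them in erythroid-like, forebrain inhibitory and microglia-like cells. Meningeal ZIC2 (1.58 times) and ZIC4 (1.64 times) did so with 30 components. As a mean over cells, choroid plexus ZIC4 (1.64 times) and endothelial ZIC1 (2.15 times) and ZIC4 (1.60 times) did so too. With an embryo left out 10 of 66 levels moved as far.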

Other observations

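At a clustering resolution of 1.0 a small unnamed cluster of 24 and 22 cells separated, led by LAMP5, CHRNA3, NEUROD1 and ROBO3, with TFAP2A and CRABP1 among its 10 leading genes. It held the highest mean ZIC1 level of that partition, 245 CPM, with 198 CPM of ZIC2 and 28.9 CPM of ZIC4. The cluster that corresponds to cluster 11, led again by GNG8, NFL and CTHRC1, had means of 209 CPM of ZIC1, 199 CPM of ZIC2 and 97.1 CPM of ZIC4 on 227 and 196 cells. Both clusters were singled out after their values were seen.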
